A study of Mus musculus with 3 samples.

Results

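Gamma-delta intraepithelial T cells are T lymphocytes that sit between the absorptive cells of the gut lining and carry a T cell receptor built from a gamma and a delta chain. They were taken from single-cell RNA-seq of mouse small intestine as the barcodes with 800 to 50000 unique molecular identifiers (UMIs, counted RNA molecules) and at most 40% of UMIs from mitochondrial genes. A member had at least 2 UMIs of the CD3 genes Cd3e, Cd3d and Cd3g together, at least 2 UMIs of the receptor constant genes Trdc and Tcrg-C1 together with at least 1 of Trdc, no Cd8b1 UMI, and under 2% of its UMIs from the enterocyte genes Apoa1, Apoa4, Fabp1, Rbp2 and Alpi. Of 27235 barcodes, 587 met the rule: 19 duodenal, 75 jejunal and 493 ileal.

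The 3 libraries hold live, propidium iodide-negative epithelial cells and intraepithelial immune cells of the duodenum, jejunum and ileum, 1 library per segment. Cells of 3 male 12-week-old wild-type C57BL/6N mice were pooled before sorting, so no animal can be told from another and segments have no replicate. Intervals given for segments are 95% intervals that cover counting error only. Comparisons between T cell classes were made across libraries on summed UMIs.

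The gamma-delta receptor is displayed with the CD3 complex, and most gamma-delta cells of the mouse gut lining also carry CD8 alpha homodimers without CD8 beta, which is why Cd8b1 marks conventional alpha-beta cells. Butyrophilin-like proteins on villus enterocytes hold the Vgamma7 subset in the epithelium. The cells are known for cytotoxic granules, for natural killer (NK) type receptors with their signalling adaptors, for dependence on interleukin 15 and for attachment to epithelial E-cadherin through the CD103 integrin, whose alpha chain is encoded by Itgae.

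The members held a median of 4325 UMIs (957 to 48046) and 1855 genes. Median depth was close between segments, at 4414 UMIs for duodenal, 4276 for jejunal and 4328 for ileal members. The median mitochondrial share was 4.44%, 5.36% and 4.62%, against 27.0%, 27.1% and 11.1% among all barcodes within the depth and mitochondrial limits. No member barcode occurred in another library, although 22, 20 and 28 barcodes were shared by the 3 pairs of libraries.

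The values that chose the members spread well past their limits. The median member held 7 Trdc, 3 Tcrg-C1 and 24 CD3 UMIs. Just inside the rule were 31 members with a single Trdc UMI, 27 with exactly 2 UMIs of Trdc and Tcrg-C1 together and 10 with exactly 2 CD3 UMIs, and 86 members had no Tcrg-C1 UMI. Just outside it, 24 barcodes missed only because their single receptor UMI was of Trdc, 19 missed only the CD3 minimum and 5 missed only the depth limits. A further 26 barcodes were left out only by a Cd8b1 UMI, 11 of them by just 1 such UMI, 28 only by enterocyte RNA and 5 only by the mitochondrial limit.

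The label was checked against 5 markers, of which Trdc and Tcrg-C1 are part of the rule. Trdc, on chromosome 14 (14:54142851-54148868 in GRCm38), was at 11.1 UMIs per 10000 UMIs in duodenal, 16.3 in jejunal and 15.7 in ileal members. Tcrg-C1, on chromosome 13 (13:19214103-19217024), was at 5.87, 11 and 7.51 per 10000. Gzma, which encodes the granule protease granzyme A (13:113093825-113100981), was at 187, 149 and 144 per 10000 in the same order. Cd7, a surface protein of T and NK cells (11:121036747-121039418), was at 19.8, 28.9 and 22. Fcer1g, the Fc receptor gamma chain that can signal beside CD3 (1:171229572-171234365), was at 14.2, 19.4 and 13.6. The rule fixed the presence of Trdc and Tcrg-C1, so only Gzma, Cd7 and Fcer1g bear on the label, and these were present in all 3 segments. None of these 3 passed in the comparison, given below, with alpha-beta T cells that have Cd8a and no Cd8b1. They therefore do not set the members apart from that class. In enterocyte-like barcodes of all libraries together none of the markers was above 0.0834 per 10000, the level of Gzma.

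**Figure D1:**
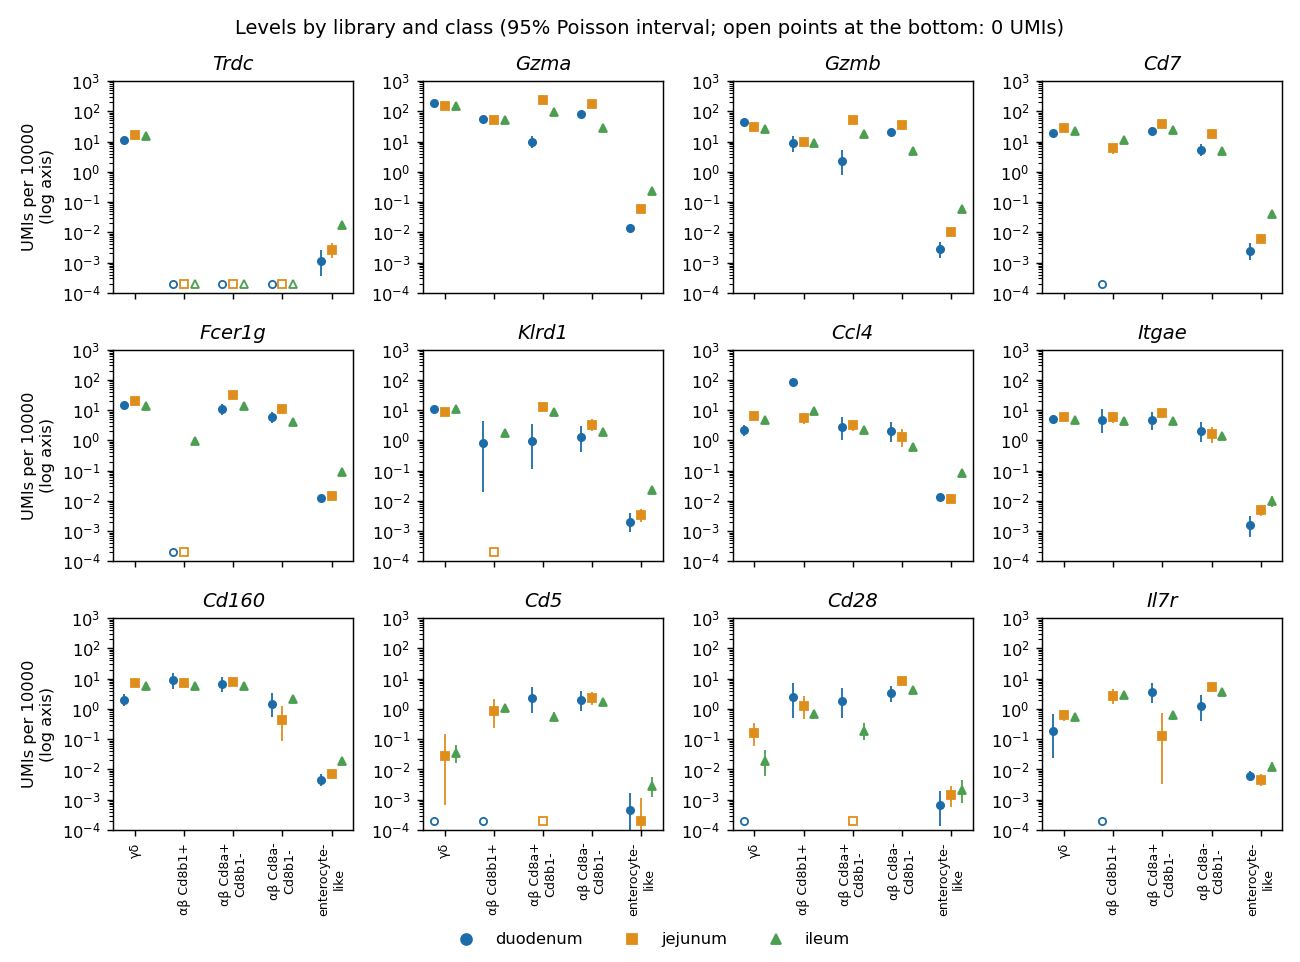
Levels of 12 genes (UMIs per 10000 UMIs, log axis) in summed gamma-delta (γδ) T cells, alpha-beta (αβ) T cells split by Cd8a and Cd8b1, and enterocyte-like barcodes, with a point per library, 95% Poisson intervals and open points for 0 UMIs. Gamma-delta levels of Gzma lie between 144 and 187 per 10000 in the 3 segments.

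Shares of cells were also read at equal depth. A Gzma UMI was found in 67.1% of the 587 members, and in 62.4% after each cell was thinned to 800 UMIs. In enterocyte-like barcodes the shares were 8.54% and 1.27%, at median depths of 12448, 12207 and 6500 UMIs from duodenum to ileum. Cd7 was found in 94.4% of members (72.2% thinned) and Fcer1g in 74.8% (53.2% thinned). The corresponding thinned shares in enterocyte-like barcodes were 0.230% and 0.278%.

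Markers of other lymphocytes were mixed. Cd4 had 5 UMIs in all members, Ncr1, an NK cell receptor, had 5 in 3 cells, and Eomes, an NK cell transcription factor, had 3. Trac, the alpha chain constant gene, was at 2.5, 3.11 and 2.30 per 10000 in the duodenum, jejunum and ileum, and 323 members had at least 1 Trac UMI while 264 had none. In ileal alpha-beta T cells Trac was at 5.62 to 9.66 per 10000. Trbc2, a beta chain constant gene, was at 4.33, 12.1 and 10.5 per 10000 in the members. Of the members, 550 had at least 2 UMIs of Trac, Trbc1 and Trbc2 together and 19 had none. These transcripts were therefore common in the gamma-delta barcodes, and whether they come from the cells, from free RNA or from joined cells was not tested.

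Receptor variable segments were read in part only, as the libraries count the far end of each transcript. A gamma variable segment was seen in 335 members, 57.1%. The most widespread was Trgv2, in 249 cells (42.4%), but it was also read in other T cells, with 1.24 UMIs per 10000 in the members against 0.867 in all alpha-beta T cells (log2 fold change 0.53, edgeR adjusted p 0.188). Trgv2 was followed by Tcrg-V7 in 69, Tcrg-V1 in 45 and Tcrg-V4 in 40. More than 1 gamma segment was seen in 79 cells, so no cell was assigned to a single V gamma type. Among delta segments, Trdv2-2 was seen in 43 cells and Trdv5 in 37.

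The share of gamma-delta T cells among all barcodes within the depth and mitochondrial limits was lowest in the duodenum and highest in the ileum. It was 0.444% (95% exact binomial interval 0.267% to 0.692%) of 4281 duodenal barcodes, 1.71% (1.35% to 2.14%) of 4380 jejunal and 6.08% (5.57% to 6.62%) of 8113 ileal ones. Among T cells, defined by at least 2 CD3 UMIs, the shares were 35.8% (23.1% to 50.2%) of 53 cells, 50% (41.7% to 58.3%) of 150 and 37.5% (34.9% to 40.2%) of 1315. The order of segments thus differed between the denominators. With at most 20% mitochondrial UMIs the first set of shares became 1.36%, 6.10% and 7.22%. A stricter gate of at least 2 Trdc UMIs and no Trac UMI gave 13.2%, 15.3% and 15.9% of T cells. Sorting and cell recovery cannot be told apart from the number of cells in the tissue.

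**Figure D2:**
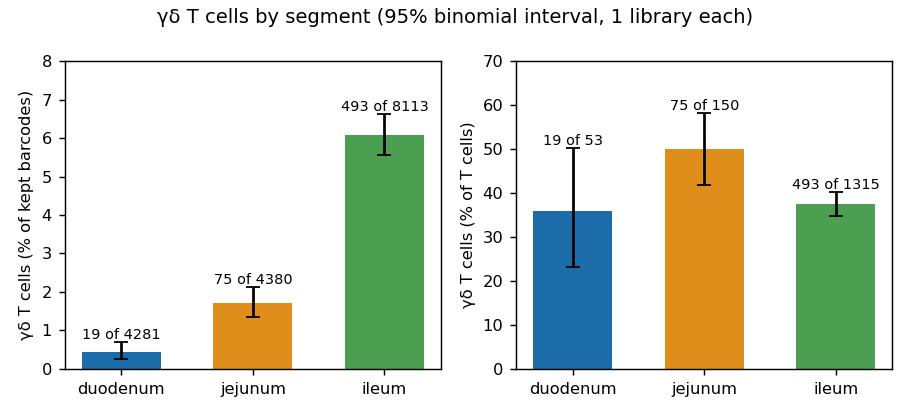
Gamma-delta T cells as a percentage of all barcodes within the depth and mitochondrial limits and of T cells in the duodenum, jejunum and ileum, with 95% exact binomial intervals. The share of all barcodes is 0.444%, 1.71% and 6.08%, while the share of T cells is 35.8%, 50% and 37.5%.

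Gamma-delta T cells were compared with 3 classes of alpha-beta T cells under the same limits, each with at least 2 UMIs of Trac, Trbc1 and Trbc2 and no Trdc UMI. Cd8b1+ alpha-beta T cells had a Cd8b1 UMI (4, 12 and 298 from duodenum to ileum). Cd8a+ Cd8b1- alpha-beta T cells had Cd8a alone (8, 20 and 137). Cd8- alpha-beta T cells had neither (9, 17 and 191). Sums of under 10 cells were left out, so the alpha-beta sums came from the jejunum and the ileum. With few sums, the spread behind the p-values and standard errors rests largely on an estimate shared between genes. The sums are segments of the same pooled mice, so these p-values and errors hold no variation between animals. The 3 comparisons share the gamma-delta sums. The fold changes are of summed UMIs, so more cells with the RNA and more RNA per cell cannot be told apart in them.

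Against Cd8b1+ alpha-beta T cells, 95 of 6533 tested genes (1.45%) were higher and 82 (1.26%) lower in gamma-delta T cells at an adjusted p below 0.05, 2.71% of genes in all. Of the NK-type receptors and adaptors, 9 of 18 tested were higher and only Cd226 was lower, with a median log2 fold change of 1.57 beside 0.02 for all genes. Of the 21 tested genes of the CD3 complex and receptor signalling, 3 were higher (Fcer1g, Lat2 and Ptpn6) and 8 lower (Cd5, Cd6, Cd28, Ubash3a, Cd2, Icos, Lat and Themis). Fcer1g counts in both of these lists, and all lists were chosen with earlier results of these data known. In the granule list Gzma and Gzmb were higher and Gzmk lower, and 16 of 19 did not pass.

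Fcer1g was at 19.4 per 10000 in jejunal and 13.6 in ileal gamma-delta cells, and at 0 and 0.936 in the Cd8b1+ class. Its log2 fold change was 3.89 ± 0.29 (SE), with an adjusted p of 3.99e-24. Tyrobp, the DAP12 adaptor of activating NK receptors, was at 7.96 and 4.06 against 0 and 0.461, with a log2 fold change of 3.08. Both adaptors were higher in gamma-delta cells in each of these libraries. Klrd1, the CD94 chain that pairs with NKG2 receptors, was at 8.58 and 11.3 against 0 and 1.72, a log2 fold change of 2.67 ± 0.27. Klra5, a Ly49 family receptor gene, had 96 UMIs in gamma-delta cells and 0 in the Cd8b1+ class, at least 14.7-fold higher against a floor of 3 UMIs over the class.

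Genes that tune conventional T cell receptor signalling were on the other side. Cd5, an inhibitory scavenger receptor of T cells, was at 0.0271 in jejunal and 0.0349 in ileal gamma-delta cells and at 0.850 and 1.09 in the Cd8b1+ class, with a log2 fold change of -4.97 ± 0.43 (SE). Cd6, its neighbour and relative (19:10789341-10830058, beside Cd5 at 19:10717116-10739002), was at 0.0812 and 0.0891 against 1.06 and 1.97, a log2 fold change of -4.43 ± 0.34. Cd28, the main costimulatory receptor, was at 0.162 and 0.0194 against 1.28 and 0.661, with a log2 fold change of -4.28. Lat, the adaptor that links the receptor to phospholipase C, was at 1.62 and 1.73 against 5.10 and 5.24, and its relative Lat2 at 1.70 and 1.31 against 0 and 0.134. The paired adaptors thus lay in opposite directions, with log2 fold changes of -1.66 and 3.24.

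Granzymes, cytokine receptors and transcription factors also differed from the Cd8b1+ class. Gzma was at 149 and 144 against 49.9 and 52.4 per 10000, a log2 fold change of 1.44 ± 0.25 with an adjusted p of 9.63e-06. Gzmb, granzyme B, was at 30.9 and 25.8 against 9.56 and 8.91, a log2 fold change of 1.45, and Gzmk, granzyme K, at 0.541 and 0.589 against 2.55 and 1.34, one of -1.44. Il2rb, the beta chain of the interleukin 15 and interleukin 2 receptors, was higher (log2 fold change 1.71) and Il7r, the interleukin 7 receptor alpha chain, lower (-2.43 ± 0.25). Ikzf2, which encodes Helios, was at 7.63 and 5.96 against 0.425 and 1.08, a log2 fold change of 2.60 ± 0.26, and was higher together with Irf8 and Tox, while Lef1, Bcl11b and Rora were lower. Cd7 was higher with a log2 fold change of 1.25. Ms4a4b, a membrane protein of T cells, was at 0.839 and 1.02 against 8.93 and 6.57, with a log2 fold change of -2.95. Of the inhibitory receptor list, Tnfrsf9, Cd200r1, Lag3 and Tnfrsf18 were higher and Ctla4 lower among 12 tested.

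Some calls of this comparison moved with RNA of other cell types. Of 5 tested B and plasma cell markers, Jchain and Igha were lower in gamma-delta cells and Ighm and Cd79b higher, with log2 fold changes of 1.30 and 1.15. The list summed to 3.88 per 10000 in ileal gamma-delta cells against 50.0 in the Cd8b1+ class, to 3.95 against 2.98 in jejunal cells and to 7.60 against 4.01 in duodenal ones. Barcodes with at least 1 UMI of Cd79a, Ms4a1, Jchain, Lyz2 or Epcam counted as carrying markers of another type, 398 of the 587 members. Without them the Igha value changed sign. All 4 tested myeloid and mast cell markers (Kit, Itgax, H2-Ab1 and Cd74) were higher, with a median log2 fold change of 1.60, and that list of 11 summed to 10.1 against 3.55 in ileal, 1.73 against 0.638 in jejunal and 13.8 against 2.41 in duodenal cells. The macrophage genes Adgre1 and C1qa and the dendritic cell gene Xcr1 had 0 UMIs in the members. Myeloid and mast cells also express Fcer1g and Tyrobp. Both still passed without barcodes that carried markers of another type, where Kit and Itgax did not pass and Cd74 changed sign. Of the genes that marked those barcodes, only Lyz2 is myeloid and none is of mast cells. The part of myeloid and mast cell RNA in the Fcer1g and Tyrobp calls was not tested. Ighm, Cd79b and Itgax did not pass without the jejunum, at 1.40, 1.38 and 1.77. The number of genes called was 72 without the jejunum and 7 without the ileum, with sums of at least 3 cells allowed. Fcer1g, Cd6, Ms4a4b, Ikzf2, Lat2 and Cd200r2 passed in each setting in which they were tested, whereas without the ileum Cd5, Cd28, Cd2, Il7r and Lat did not pass, at log2 fold changes of -4.15, -3.45, -3.63, -1.89 and -1.83, and neither did Gzma (2.06) and Gzmb (2.5). Il2rb and Gzmk did not pass without the ileum (1.96 and -1.56) or the jejunum (1.75 and -1.08), and Klrb1a did not without the ileum (5.8). Gzma, Gzmb and Cd7 also lost their calls under the stricter gate, at 1.14, 1.18 and 1.17.

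Cd8a+ Cd8b1- alpha-beta T cells gave the fewest called genes. They were also the smallest class, with 165 cells against 314 Cd8b1+ and 217 Cd8- cells. Genes of the gamma-delta receptor summed to 11.9 per 10000 in ileal cells of this class. The ileal sums were 8.32 in Cd8b1+, 3.07 in Cd8- and 34.8 in gamma-delta cells. In the jejunum the 4 sums were 13.2, 11.3, 3.89 and 41.5 in the same order. Whether gamma-delta cells without a Trdc UMI entered this class was not tested. Of 6533 genes, 16 (0.245%) were higher and 21 (0.321%) lower in gamma-delta T cells, 0.566% in all. None of the 19 tested granule genes passed, and none of the 28 homing genes or the 14 cytokine receptor genes did (the comparison had 237 genes at an unadjusted p below 0.05, and DESeq2 called 5). Gzma was at 149 in jejunal and 144 in ileal gamma-delta cells and at 241 and 94.7 in this class, so the order turned between segments, and the log2 fold change was 0.04 with a 95% interval from -0.45 to 0.53. The intervals were -0.76 to 0.13 for Fcer1g, -0.69 to 0.24 for Cd7, -0.47 to 0.43 for Klrd1 and -0.54 to 0.30 for Itgae. A p that misses the threshold does not show that the classes are alike. The furthest limit of these intervals was -0.76 on the log2 scale. They average over segments, and the Cd8a+ Cd8b1- sums came from the jejunum and the ileum only. The intervals therefore do not bound the difference within a segment.

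The genes that did differ included Cd5 and Cd6. Cd5 was at 0.0271 and 0.0349 in gamma-delta cells against 0 and 0.544 in the Cd8a+ Cd8b1- class, with a log2 fold change of -3.70 ± 0.54, and Cd6 at 0.0812 and 0.0891 against 0.129 and 0.632, one of -2.62. In the jejunum the Cd5 level of the alpha-beta class was 0, and with sums of at least 3 cells it did not pass without the ileum (log2 fold change -4.04). Cd2, an adhesion receptor, was lower (log2 fold change -1.55). Klra5, Klre1 and Klrb1a, all NK-type receptor genes, were lower by 1.46, 1.25 and 1.17 on the log2 scale, while they were higher against Cd8b1+ cells. Without barcodes that carried markers of other types Klre1 and Klrb1a changed sign against the Cd8a+ Cd8b1- class, to 0.21 and 0.10, and did not pass. Ccl4, a chemokine, was higher with a log2 fold change of 1.10, and so were Gm156 (2.05), Cd79b (1.64) and Maf (1.95). Cd2, Klra5, Klre1, Klrb1a, Ccl4, Cd79b and Maf did not pass without the jejunum, at -1.85, -0.93, -0.24, -1.15, 0.76, 1.59 and 1.96, and Klre1 and Klrb1a did not pass without the duodenum, at -1.23 and -1.14. Without the ileum Cd2, Klrb1a, Ccl4 and Maf were at -2.88, -0.94, 0.69 and 0.85 and did not pass.

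Enterocyte markers moved with this comparison. Of 17 tested, 4 were higher in gamma-delta cells (Krt19, Reg3g, Krt8 and Reg3b), and the list summed to 85.4 per 10000 in ileal gamma-delta cells against 49.4 in the Cd8a+ Cd8b1- class, and to 23.1 against 22.6 in jejunal ones. All 4 changed sign once barcodes with markers of other types were left out. H2-Ab1 and Cd74, antigen presentation genes, were lower and also changed sign under several settings, and the heat shock genes Hspa1b and Hspa1a, lower with log2 fold changes of -2.18 and -1.62, changed sign without the barcodes that held markers of other types. Maf was at 2.97 per 10000 in enterocyte-like barcodes, above its 0.867 in gamma-delta cells, and the part of free RNA in its call was not tested. Without the jejunum 12 genes were called and without the ileum 0 (sums of at least 3 cells, edgeR).

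Cd8- alpha-beta T cells, which include Cd4+ cells, gave the most called genes, with 139 (2.13%) higher and 222 (3.4%) lower in gamma-delta T cells, 5.53% of 6533. The granule list had 9 of 19 members higher and none lower, and the homing list 6 higher and 7 lower of 28. Among cytokines and chemokines, 4 of 10 were higher (Ccl4, Ccl3, Xcl1 and Ccl5) and 3 lower (Areg, Ltb and Il16). Immediate early and heat shock genes were lower in 11 of 20 and higher in 1, and cell cycle genes higher in 7 of 13 and lower in 1.

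The lower genes included those of helper and circulating T cells. Cd4 was at 0.0271 in jejunal and 0.0155 in ileal gamma-delta cells against 1.01 and 1.33 in the Cd8- class, a log2 fold change of -6.19 ± 0.53. Cd28 (1:60716800-60773359) was at 0.162 and 0.0194 against 8.36 and 4.20, a log2 fold change of -6.98 ± 0.33. Icos (1:60977927-61000320) and Ctla4 (1:60887000-60915832), which lie beside Cd28 and encode related receptors, had log2 fold changes of -5.18 and -4.44. The 3 neighbours were thus lower together. Ccr7, the lymph node homing receptor, was at 0 and 0.0813 against 2.88 and 1.47, and Klf2 and S1pr1, which govern exit from tissue, were lower as well. Of the transcription factors, Tcf7 and Lef1, kept by naive and memory T cells, were among 9 lower.

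The higher genes included those that hold lymphocytes in the epithelium. Itgae was at 5.98 and 4.58 per 10000 against 1.59 and 1.38, with a log2 fold change of 1.66 ± 0.24. Itga1, the alpha chain of a collagen-binding integrin, Ccr9, the receptor for the gut chemokine Ccl25, and Jaml, an adhesion molecule that binds epithelial partners, were higher by 1.46, 1.04 and 1.75. Ccl4 was at 6.33 and 4.55 against 1.30 and 0.586, a log2 fold change of 2.80, while Klrd1 had one of 2.09. Gzma was at 149 and 144 against 179 and 28.2, so its direction differed between the segments, and it did not pass (log2 fold change 0.79 ± 0.26, adjusted p 0.0515). Gzmb passed (0.88, adjusted p 0.0237) with the same turn, at 30.9 against 36.2 in jejunal and 25.8 against 4.96 in ileal cells, and it did not pass without the duodenum (0.87) or the ileum (0.79). Il17a, a type 17 cytokine, had 56 UMIs in the Cd8- class, all of the ileum, and 2 in gamma-delta cells, a ratio of 90.5 (95% counting interval 23.9 to 765). Just 5 ileal Cd8- cells held all of those UMIs.

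Without the jejunum 147 genes were called against the Cd8- class and without the ileum 17, with sums of at least 3 cells. Cd28, Icos, Ctla4, Cd2, Cd6, Maf, Cd4 and Itgae passed in each setting that tested them. Without the ileum Ccl4 (1.75), Klrd1 (2.39), Itga1 (2.12), Jaml (1.25), Cd5 (-5.83), Il7r (-2.85) and Tcf7 (-2.01) did not pass and kept their direction, and Xcl1 did not pass without the jejunum (0.57) or the ileum (2.13). Ccl5 did not pass without the duodenum (0.85) or the ileum (0.91), and Ccr9 did not pass without the jejunum (1.05) or the ileum (0.68). Goblet cell genes summed, with tuft, enteroendocrine and Paneth cell markers, to 40.1 per 10000 in ileal gamma-delta cells and 97.9 in the Cd8- class, and Muc2, Fcgbp and Tff3 were called lower.

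**Figure D3:**
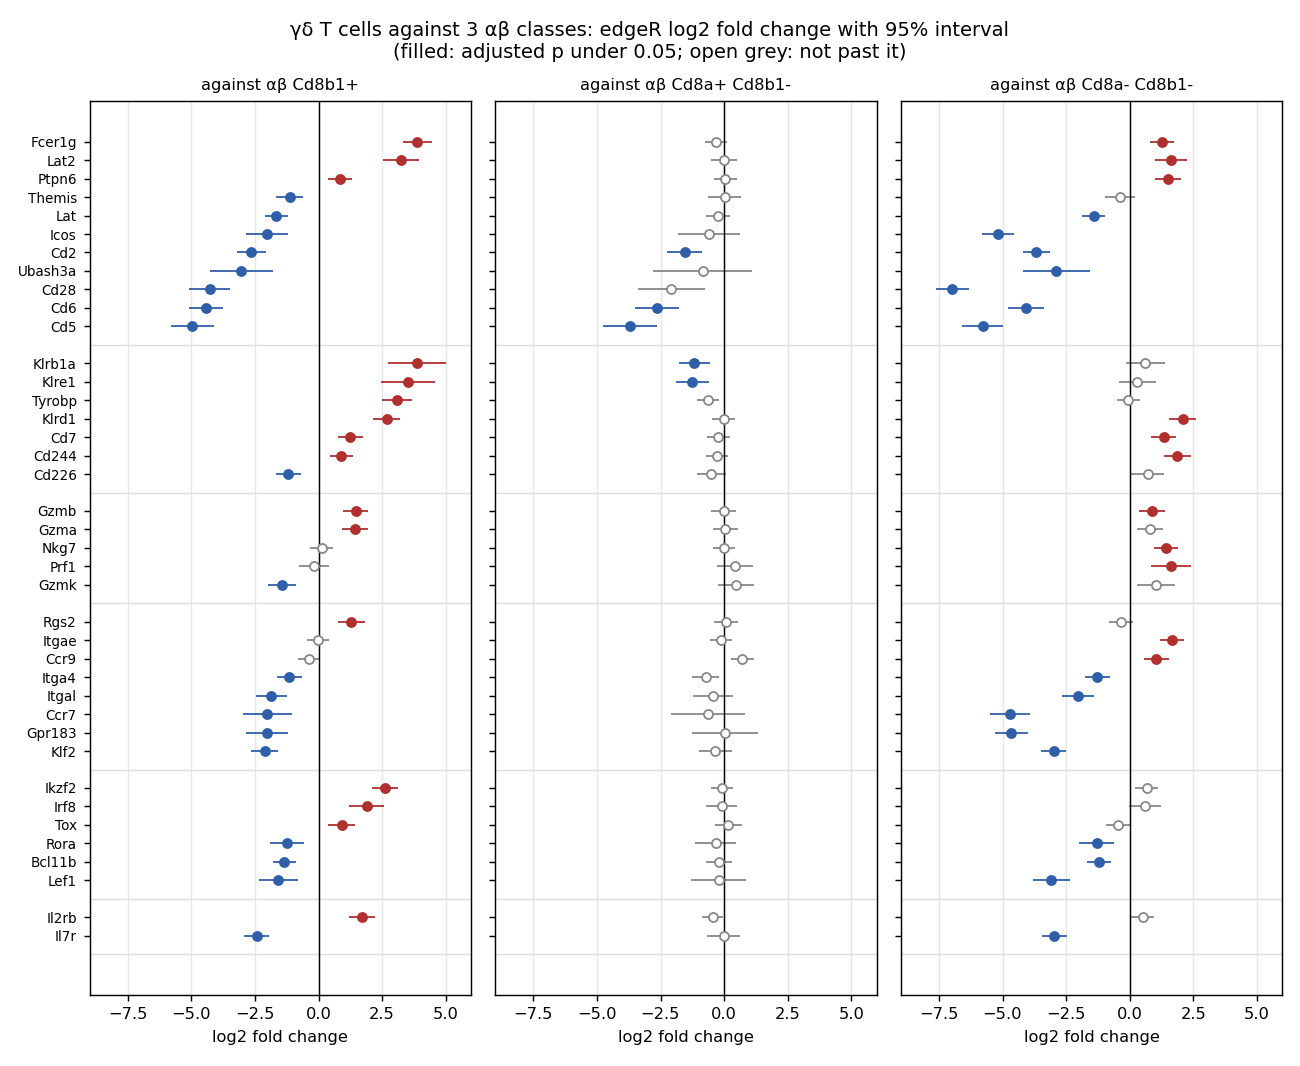
Log2 fold changes of listed genes in gamma-delta T cells against each alpha-beta class, with 95% intervals, where filled points (red higher, blue lower) passed the adjusted p of 0.05 and αβ Cd8a- Cd8b1- is the Cd8- class. Fcer1g lies at 3.89 against Cd8b1+ cells and at -0.31 against Cd8a+ Cd8b1- cells, while Cd5 lies below 0 in each.

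To bring in the duodenum, all alpha-beta cells were summed together, which left 21, 49 and 626 cells in the 3 segments. This comparison was added after the cells had been counted. Here 49 of 4399 genes (1.11%) were higher and 87 (1.98%) lower, 3.09% in all. Without TMM scaling 87 were higher and 90 lower. The 136 calls became 306 without the duodenum and 56 without the ileum. Cd28, Cd5, Cd6, Icos, Ctla4 and Il7r were lower and passed in each setting, with log2 fold changes of -5.68, -5.18, -4.12, -3.89, -3.19 and -2.34. Cd5 was at 0, 0.0271 and 0.0349 per 10000 in gamma-delta cells of the duodenum, jejunum and ileum and at 1.76, 1.03 and 1.17 in alpha-beta cells. It was thus lower in gamma-delta cells of each segment. Fcer1g was higher by 0.98 and Klrd1 by 1.56, and Fcer1g did not pass without the ileum. None of the 18 tested granule genes passed: Gzma was at 187, 149 and 144 against 56.2, 172 and 53.8, with an adjusted p of 0.0858, and 467 genes had an unadjusted p below 0.05 (DESeq2 called 49 genes in all).

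Within the gamma-delta cells, Cd8a, which the rule did not use, split the members into 453 with a UMI and 134 without. Median depth was 4350 and 4239 UMIs, so depth was close, although 62.5% of the first and 29.9% of the second had a Trac UMI. The test used the jejunum and the ileum for cells without Cd8a, since the duodenum had 3. Of 6403 genes, 49 (0.765%) were higher and 39 (0.609%) lower in cells with Cd8a, 1.37% in all.

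Granule and chemokine genes were higher in cells with Cd8a. Gzma was at 170 in jejunal and 174 in ileal cells with Cd8a and at 16.6 and 44.6 in those without, a log2 fold change of 2.34 ± 0.28 with an adjusted p of 2.32e-11. Gzmb was at 34.9 and 31.0 against 4.86 and 8.44, one of 2.05, and Ccl5, a chemokine of cytotoxic cells, at 176 and 181 against 20.4 and 79.6, one of 1.73. These 3 genes were each higher in cells with Cd8a in both segments, with a single sum per class and segment. Gzmk and Nkg7, a granule membrane protein, were higher too, making 4 of 19 granule genes, as were Tyrobp (2.00), Klrd1 (1.19) and Ccl4 (1.55). The NK-type receptors and adaptors went both ways. Of 20 tested, 3 were higher (Tyrobp, Klrd1 and Fcer1g) and 2 lower (Klra7 at -5.35 and Klrk1 at -2.29). Cells without Cd8a had higher levels of Ms4a4b (3.04 and 2.19 against 0.5 and 0.670), Il7r, Cd2, Ltb and Tcf7, which encodes TCF-1, at 1.42 and 1.19 against 0.5 and 0.479. With sums of at least 3 cells, Gzma did not pass without the jejunum (2.29) or the ileum (2.04), and Gzmb (2.55 and 2.66), Ccl5 (1.65 and 1.92), Tyrobp (1.84 and 2.71), Ms4a4b (-1.89 and -2.79), Il7r (-1.14 and -3.34) and Tcf7 (-1.40 and -1.65) did not either, and 10 genes were called without the jejunum and 1 without the ileum.

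Cell cycle genes were higher in 5 of 14 tested, among them Mki67 and Top2a. Mki67 UMIs came from 20 members in all. Markers of other cell types moved with the split in both directions. Of 4 tested myeloid and mast cell markers, Cd74 and H2-Ab1 were lower with Cd8a (log2 fold changes -2.02 and -1.80), and that list summed to 7.10 per 10000 with Cd8a and 20.2 without in the ileum and to 1.81 and 1.21 in the jejunum. Without the jejunum both changed sign, to 1.98 and 0.44. Ighm, a B cell gene, and Anpep, an enterocyte gene, were lower too (-0.85 and -1.07), but Ighm did not pass without the duodenum (-0.84), the jejunum (-0.80) or the ileum (-1.43), and Anpep was at -0.22 and did not pass without the jejunum. Muc2, Fcgbp and Tff3, goblet cell genes, were called higher with Cd8a, but of the 4 members with at least 10 UMIs of Muc2 and Fcgbp all were ileal, and without doublet-like barcodes Muc2 and Tff3 changed sign.

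Gzma itself was not graded across the members. Most cells had either a high level or none, with only 10 of 587 between 2.5 and 10 UMIs per 10000. At a limit of 5 per 10000, set after the values were seen, 365 cells were Gzma-high and 222 Gzma-low, and 193 of the low cells had no Gzma UMI. High cells made up 18 of 19 duodenal, 45 of 75 jejunal and 302 of 493 ileal members (94.7%, 60% and 61.3%). The groups had similar ileal depth, at medians of 4258 and 4428 UMIs. The same limit was passed by 57.6% of Cd8b1+, 49.7% of Cd8a+ Cd8b1- and 14.3% of Cd8- alpha-beta cells and by 0.249% of enterocyte-like barcodes. As the split uses the same cells, what follows is a description with no test.

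**Figure D4:**
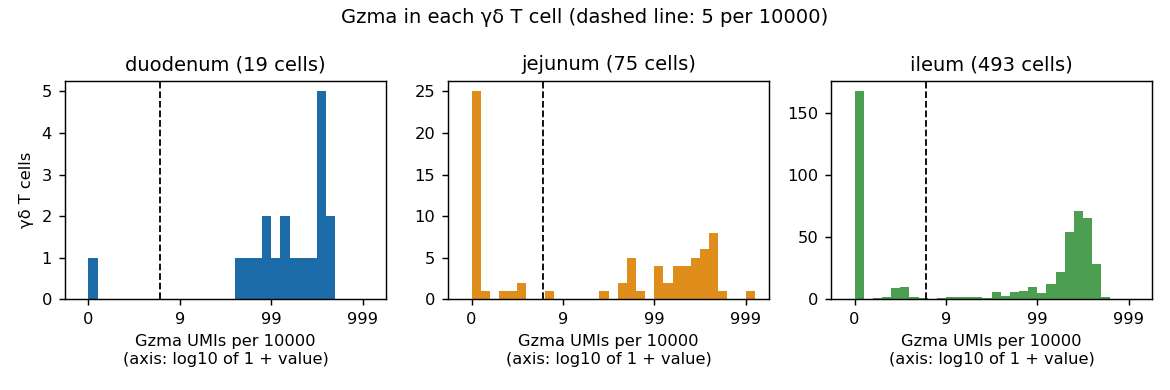
Number of gamma-delta T cells by Gzma level (histogram, UMIs per 10000 UMIs on an axis of log10 of 1 plus the value) in the duodenum, jejunum and ileum, with the limit of 5 per 10000 as a dashed line. Of 587 cells, 10 lie between 2.5 and 10.

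Gzmb followed the split closely. In the ileum it was at 42.0 per 10000 in Gzma-high and 0.310 in Gzma-low cells, with a UMI in 96.0% and 4.71% of cells (85.4% and 2.09% thinned to 800 UMIs), and in the jejunum at 57.4 and 0.866. Ccl4 was at 7.25 and 0.280 in the ileum and 11.8 and 0.173 in the jejunum. Ccl5 was at 228 and 45.0, and 251 and 46.2. Gzmb, Ccl4 and Ccl5 were thus higher in Gzma-high cells of both segments, with counting intervals that did not overlap. Prf1, perforin, was at 1.15 and 0.230 in the ileum, and Prdm1, which encodes Blimp-1, at 0.468 and 0.02. Gzmk had 152 UMIs in ileal high cells and 0 in low cells.

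Gzma-low cells had another set of genes. Tcf7 was at 1.54 per 10000 in ileal low cells and 0.0759 in high cells, with a UMI in 55.0% and 3.64% of cells, and at 1.15 and 0.153 in the jejunum. Xcl1, a chemokine that attracts cross-presenting dendritic cells, was at 11.7 and 3.64 in the ileum and 23.4 and 6.21 in the jejunum. Cd160, a receptor for the herpesvirus entry mediator, was at 8.79 and 3.48, and 10.7 and 4.58. These genes were thus lower in Gzma-high cells of both segments. Id3, a repressor of E proteins, was at 1.70 and 0.677 in the ileum and 2.25 and 0.204 in the jejunum, and Kit, the stem cell factor receptor, at 1.03 and 0.234, and 1.62 and 0.153. Kit is also in the list of myeloid and mast cell markers, and the part of such RNA in its levels here was not tested. Slamf6 was at 0.539 and 0.0506 in the ileum. Ahr, the aryl hydrocarbon receptor, was at 1.87 and 0.816 in the ileum but at 1.44 and 1.48 in the jejunum, so it did not separate the cells there.

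Some receptor genes were close to even across the split and others were not. Trdc, which the rule used, was at 16.0 and 15.1 per 10000 in ileal high and low cells and Fcer1g at 13.9 and 13.1, and Cd7 was at 21.7 and 22.5. Cd8a was found in 89.0% of high and 57.7% of low cells, and 38.9% of high and 55.0% of low cells had no Trac UMI. One gene stood apart for another reason: Hbb-bs, a haemoglobin gene, had 2496 UMIs in 6 ileal low cells, and just 1 member barcode held 10 or more.

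**Figure D5:**
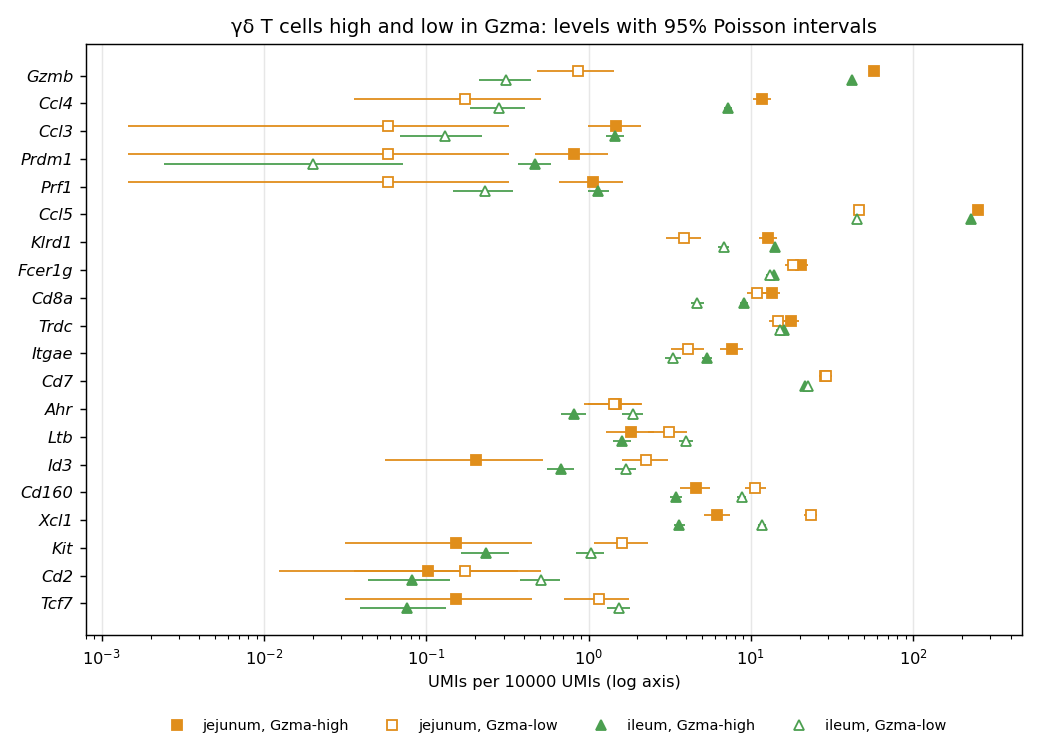
Levels (UMIs per 10000 UMIs, log axis) of granule, chemokine, receptor and transcription factor genes in Gzma-high and Gzma-low gamma-delta T cells of the jejunum and ileum, with 95% Poisson intervals. Gzmb is at 42.0 and 0.310 in the ileum, and Tcf7 at 0.0759 and 1.54.

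Along the intestine, 1634 genes were read in gamma-delta cells above 4 times their level in enterocyte-like barcodes. Each had at least 30 UMIs in all members and a UMI in each library. Genes without a UMI in the 19 duodenal cells, such as Tcf7, were thus left out, and the counts do not cover them. Of these, 121 (7.41%) were at least 2-fold higher in the ileum than in the duodenum, and 139 (8.51%) at least 2-fold lower. Both counts take genes whose jejunal counting interval reached the range between the duodenal and ileal levels. The jejunal level itself could lie outside that range. With 103888 UMIs in the 19 duodenal cells, most of these ratios had counting intervals that reached below 2-fold, and there is no replicate. Among the genes read in each library, the interval lay beyond 2-fold for Dnaja4, Myef2, Basp1 and Gm156 alone, all higher in the duodenum. Gm156 was at 2.12 (1.33 to 3.21), 1.27 (0.934 to 1.69) and 0.589 (0.499 to 0.690) per 10000 from duodenum to ileum, but 37 cells held all of its UMIs.

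Ms4a4b had 1, 31 and 264 UMIs in the 3 segments, or 0.0963, 0.839 and 1.02 per 10000, an ileal level 10.6 times the duodenal one with an interval from 1.89 to 421. Gzmb went the other way, at 44.0 (40 to 48.2), 30.9 (29.1 to 32.7) and 25.8 (25.2 to 26.4). Xcl1 was at 0.866 (0.396 to 1.64), 14.3 (13.1 to 15.5) and 6.77 (6.45 to 7.09), highest in the jejunum, and Tcf7 had no UMI in the duodenum and was at 0.622 and 0.643 in the jejunum and ileum. Duodenal cells thus had more Gzmb and less Xcl1 than the others, and 18 of the 19 were Gzma-high. The 95% interval of the duodenal Tcf7 level reached 0.355 per 10000. The heat shock genes Hspa1a and Hspa1b were at 6.45 and 5.01 in duodenal, 0.595 and 0.271 in jejunal and 0.244 and 0.256 in ileal cells. In Cd8a+ Cd8b1- alpha-beta T cells they were at 6.99 and 6.99, 1.54 and 1.80, and 0.825 and 1.04 from duodenum to ileum. The high duodenal level was thus not particular to gamma-delta cells.

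RNA of other cell types differed between the segments. Enterocyte markers summed to 60.4, 23.1 and 85.4 per 10000 in gamma-delta cells of the duodenum, jejunum and ileum, goblet, tuft, enteroendocrine and Paneth cell markers to 10.5, 5.06 and 40.1, myeloid and mast cell markers to 13.8, 1.73 and 10.1, and B and plasma cell markers to 7.60, 3.95 and 3.88. The part of these RNAs in the differences between segments was not tested.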

How the data were processed

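The authors prepared 10x Genomics Chromium 3′ version 3 libraries from sorted live cells and, per the labels, processed them with Cell Ranger 3.0.2 against GRCm38 (mm10). The annotation release is not given in the sources used here. The deposited files hold filtered matrices of whole UMI counts per gene and barcode, 31053 genes, with no normalization.

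Counts were read with Python 3.11.15 (numpy 2.4.6, pandas 2.3.3, scipy 1.17.1). The members, the 18 gene lists and the split of alpha-beta classes were chosen with earlier results of these data known. Levels are UMIs per 10000 UMIs over the cells summed, with 95% intervals (exact Poisson for levels, exact binomial for shares). UMI counts per member ranged from 957 to 48046, and intervals cover counting error only. Enterocyte-like barcodes had at least 2% of UMIs from the 5 enterocyte genes and no CD3 UMI. No doublet caller was run. Barcodes with markers of other types (at least 1 UMI of Cd79a, Ms4a1, Jchain, Lyz2 or Epcam) or over 20000 UMIs were instead left out as an alternative. Of the 587 members, 398 held such a marker UMI and 189 did not, so this setting left out most members.

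UMIs were summed per library and class (at least 10 cells), filtered with filterByExpr, scaled with TMM and tested with edgeR 4.0.16's quasi-likelihood test (R 4.3.3), with all 4 classes in 1 fit and a term for the library, and p-values were adjusted by Benjamini-Hochberg over every tested gene. Classes of 1 library come from the same pooled mice and the same run, so the library pairs them and the block is part of the fit. Genes of the selection rules were not counted. The test was tried on simulated counts first. DESeq2 1.42.0 was an alternative, as were other scalings, filters, gates and depths.

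Named are the 5 markers, listed genes that passed or define their list, and, per comparison, up to 10 genes in each direction (5 for the Cd8a split) with the largest fold change among those with an adjusted p below 0.05, at least 30 UMIs, the same direction in the 3 libraries and a level at least 4 times that in enterocyte-like barcodes, leaving out genes of the rules, receptor segments and immunoglobulin genes. Genes described for the Gzma split, Slamf6, Hbb-bs and Il17a were chosen after their values were seen. Gene positions are from GENCODE M21, which held 31011 of the 31053 genes.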

Additional observations from a re-analysis of the deposited data

Results flagged for a closer look

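3 sets of barcodes lay outside the comparisons and carried the gamma-delta signal. Of the barcodes that met every other limit, 26 held a Cd8b1 UMI, with a median of 2 Cd8b1 and 7.5 Trdc UMIs. Another 28 held 2% or more of their UMIs from the 5 enterocyte genes, and 5 held over 40% mitochondrial UMIs, from 40.3% to 59.4%, 3 in the duodenum and 2 in the ileum. They entered no comparison, and whether they are single cells was not tested.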

How the results depend on the processing

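The direction of single genes held more often than their call. Of 4500 comparisons of a gene's fold change with an alternative (288 genes by comparison), 3278 kept direction and call, 1182 kept direction but no longer passed and 40 turned. The causes were not tested, except that fewer cells, UMIs or sums enter several settings.

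Classes of 1 library share a pool of mice, so the library pairs them. Without the replicate block the calls fell from 177 to 36 against Cd8b1+ cells, from 37 to 0 against Cd8a+ Cd8b1- cells (edgeR, 237 genes at an unadjusted p below 0.05 with the block), from 361 to 107 against Cd8- cells, from 88 to 5 for the Cd8a split and from 136 to 22 against all alpha-beta cells. In the same order DESeq2 called 53, 5, 120, 9 and 49 genes, the stricter gate (at least 2 Trdc and no Trac UMI) 99, 13, 213, 56 and 45, and cells thinned to 800 UMIs 30, 2, 72, 7 and 7. Leaving out barcodes with markers of other types or over 20000 UMIs gave 58, 4, 220 and 14 for the first 4, and sums of at least 3 cells gave 41, 2, 116 and 5. With such sums, chosen after the cells were counted, the calls without the jejunum were 72, 12, 147 and 10 and without the ileum 7, 0, 17 and 1, where a class with 1 sum is assumed to vary like the others. With sums of at least 10 cells, leaving out the jejunum or the ileum was not run for these 4 because no residual degrees of freedom remained. Against all alpha-beta cells, 306 genes were called without the duodenum, 56 without the ileum and 209 without the filter on low counts.

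Fold changes that turned are given on the log2 scale. Without other-type markers they were, against Cd8b1+ cells, 0.11 for Igha, -0.24 for Cd74 and -0.0034 for Reg3b, against Cd8a+ Cd8b1- cells 1.11 for Hspa1b, 3.08 for Hspa1a, -0.78 for Krt19, -0.16 for Reg3g, -0.39 for Reg3b, -0.034 for Krt8, 0.21 for Klre1 and 0.10 for Klrb1a, against Cd8- cells 0.054 for Fos, for the Cd8a split -0.028 for Muc2, -0.37 for Tff3, 0.21 for Anpep and -0.34 for Xcl1, and against all alpha-beta cells 1.40 for Hspa1a. Without doublet-like barcodes, a setting chosen after the levels were seen, H2-Ab1 was at 1.61 and Cd74 at 2.28 against Cd8a+ Cd8b1- cells, and Muc2 at -0.028 and Tff3 at -0.36 for the Cd8a split. Without the block Hspa1a was at 0.78 against Cd8a+ Cd8b1- cells and 1.07 for the Cd8a split, where DESeq2 gave -0.11 for Tff3. Sums of at least 3 cells gave 0.37 for Cd74 against Cd8a+ Cd8b1- cells, and the stricter gate 0.10 for Hspa1b and 0.13 for Hspa1a against all alpha-beta cells. Without the jejunum the values were 0.080 for H2-Ab1 and 1.38 for Cd74 against Cd8a+ Cd8b1- cells, 0.34 for Tff3 and -0.048 for Hspa1b against Cd8- cells, and 1.98 for Cd74, 0.44 for H2-Ab1 and -0.36 for Xcl1 for the Cd8a split. Without the ileum they were -0.89 for Rgs2 against Cd8b1+ cells, -0.0507 for Reg3b against Cd8a+ Cd8b1- cells, 1.06 for Tff3 and -0.59 for Hspa1b against Cd8- cells, and 0.65 for Jchain against all alpha-beta cells (-4.12 with all libraries, -4.65 without the duodenum).

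Shares depended on the gate. For duodenum, jejunum, ileum and all libraries, the share of barcodes was 1.36%, 6.10%, 7.22% and 6.30% with at most 20% mitochondrial UMIs, 0.234%, 0.930%, 5.28% and 2.20% with no such limit, 0.164%, 0.525%, 2.58% and 1.42% with the stricter gate and 0.140%, 0.799%, 3.06% and 1.72% when cells were thinned first. The share of T cells was 13.2%, 15.3%, 15.9% and 15.7% with the stricter gate and 18.2%, 30.7%, 25% and 25.4% thinned. With enterocyte genes below 0.5% it was 24.5%, 40%, 36.0% and 36.0%. Of these counts and shares, 67 values moved and 67 did not.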

Other observations

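Butyrophilin-like genes, of which some have products on enterocytes that engage gamma-delta receptors, were read at higher levels in enterocyte-like barcodes than in gamma-delta cells. Btnl1, Btnl2, Btnl4, Btnl6 and Btnl9 together summed to 1.86 UMIs per 10000 in duodenal, 1.72 in jejunal and 2.13 in ileal enterocyte-like barcodes. In gamma-delta cells they summed to 0.289, 0.0541 and 0.201. Btnl6 was at 0.271 (95% interval 0.255 to 0.286), 0.291 (0.276 to 0.306) and 0.554 (0.527 to 0.581) per 10000 in enterocyte-like barcodes from duodenum to ileum, and Btnl2 at 0.856, 0.661 and 0.645, so the family did not share 1 order along the intestine. The share of gamma-delta cells among barcodes rose along the same axis, but with 3 libraries no relation was computed.

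Cd79b, a signalling chain of the B cell receptor, was seen in 144 members, while Cd79a, its partner, was seen in 17 and Ms4a1, a B cell surface gene, in 13. In jejunal gamma-delta cells Cd79b was at 0.785 per 10000 with 0 UMIs of Cd79a and Ms4a1. Cd79b passed as higher in gamma-delta cells against each of the alpha-beta classes, with log2 fold changes of 1.15, 1.64 and 2.01, though it did not pass against the first 2 without barcodes that held markers of other types.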
